A study of Mus musculus with 8 samples.

Results

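The contrast described here is the interaction of fine particulate matter (PM2.5) and light regime in mouse liver, that is, the PM2.5 response under constant light minus the PM2.5 response under a light/dark cycle. It was taken over all 8 libraries and over the 11316 genes, of 48432 listed, that had a usable estimate in every library and reached 1 FPKM in at least 2 of the 8. FPKM is a gene's sequenced fragments scaled to transcript length and library depth, and values are given in the order replicate 1, replicate 2. The animals were wild-type C57BL/6 mice kept for 30 weeks in 1 of 4 conditions, with 2 liver libraries each. LD-FA had a light/dark cycle and filtered air, LD-PM2.5 the same cycle and PM2.5, LL-FA constant light and filtered air, and LL-PM2.5 constant light and PM2.5. For age, sex and hour of collection the sources used here give nothing, and no label says that replicates were different animals, so p-values may measure only a technical spread. A positive interaction means that the PM2.5 response stood higher in constant light than in the light/dark cycle, and a negative one that it stood lower.

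PM2.5 consists of airborne particles small enough to reach the deep lung, and its inhalation is known to raise inflammatory signals that the liver receives through the blood. Hepatocytes answer such signals largely through the interleukin-6 receptor and the transcription factor STAT3, and they make many plasma proteins, glucose, cholesterol and hepcidin, the hormone that limits iron uptake. Many of these outputs also follow the daily clock, a loop in which the activators Arntl (Bmal1) and Clock drive the Per and Cry repressors, and constant light is known to disturb its timing.

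Library totals ran from 22215000 to 31819000 fragments, and both libraries of a group correlated across genes with a Pearson r of 0.959 to 0.980. The 11 hepatocyte markers in the table summed to between 27228 and 33839 FPKM in every library. Transcripts of exocrine pancreas stood apart: 14 acinar markers summed to 4593 FPKM in the first LD-FA library, to 158.5 in the first of LD-PM2.5 and to 445.4 in the second of LL-PM2.5, while the other 5 libraries had 18.2 to 34.8. Skeletal muscle markers, 12 in number, summed to 390.2 and 45.7 FPKM in the LD-FA libraries and to 774.7 in the first of LL-FA, while the remaining 5 had 2.73 to 3.25. The part of either tissue in the results was not tested, and values without these libraries are given further on.

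Across all tested genes the PM2.5 responses in both light regimes were weakly related. The PM2.5 effects in the light/dark cycle and in constant light, which share no library, had a Spearman rho of 0.15 (-0.04 to 0.33 when single libraries were left out) across genes, which are not independent replicates. No gene had an interaction past an adjusted p of 0.05 in edgeR's quasi-likelihood test, where the smallest adjusted p was 0.843. An unadjusted p under 0.05 was found for 552 genes (4.88% of those tested), 223 with a positive and 329 with a negative interaction (1.97% and 2.91%). DESeq2 called 33 genes (0.292%) at an adjusted p under 0.05, and limma on log2(FPKM + 1) called 2, Rny3 and Gm23245, which are named after their values were seen. Adjusted p-values of DESeq2 given below thus belong to genes that the edgeR test did not call. By FPKM alone, 318 genes (2.81%) had both PM2.5 libraries above both filtered-air libraries in one light and below both in the other. Of these, 150 (1.33%) stood lower with PM2.5 in the light/dark cycle and higher in constant light, and 168 (1.48%) the other way round. Libraries separated in the same direction in both lights for 707 genes (6.25%), 327 upward and 380 downward (2.89% and 3.36%). The crossing count was 516 (4.56%) on TMM-scaled counts, and the offset of FPKM from that scale ran from -0.08 to 0.05 (log2) between libraries.

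**Figure D1:**
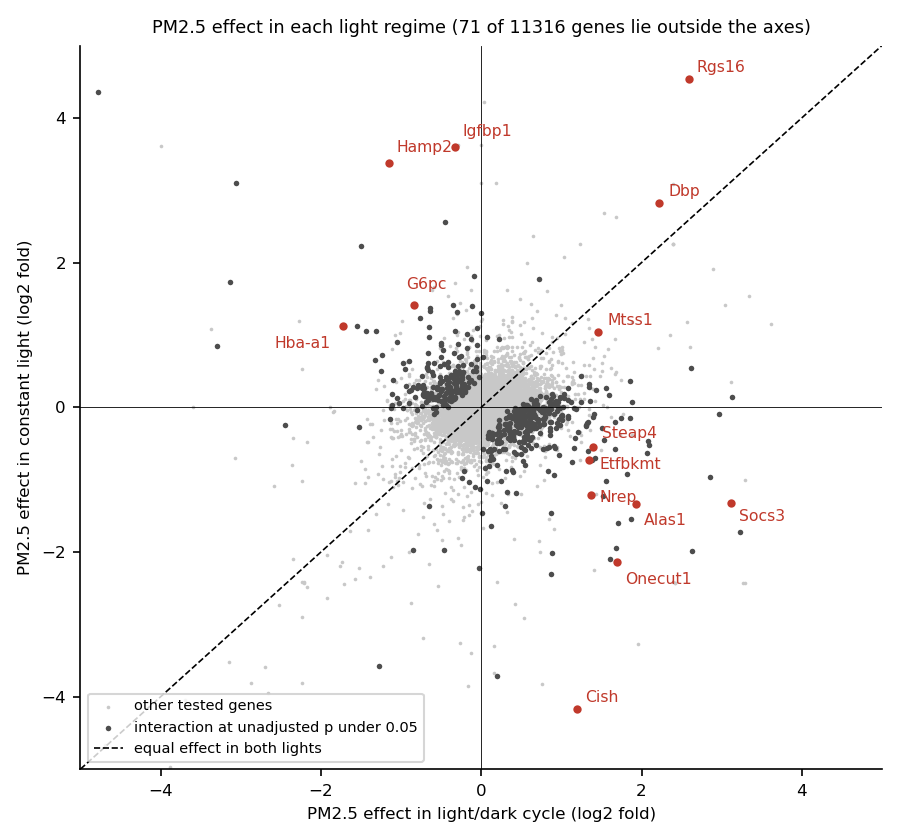
PM2.5 effect of tested genes in the light/dark cycle (x axis) and in constant light (y axis), both as log2 fold changes from edgeR; dark points are the 552 genes whose interaction had an unadjusted p under 0.05, red points are genes described in the text, and the dashed line marks equal effects, and 71 genes outside the axes are not drawn. Hba-a1 and Hamp2 lie in the upper left, Alas1, Nrep and Onecut1 in the lower right, and Dbp and Mtss1 near the dashed line.

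All 4 adult globin transcripts, which encode the chains of hemoglobin, stood lower with PM2.5 in the light/dark cycle and higher with PM2.5 in constant light. Hba-a1, an alpha chain (chromosome 11, 32283511 to 32284465 on GRCm38), was at 23.6 and 12.7 FPKM with filtered air and 4.81 and 5.92 with PM2.5 in the light/dark cycle, and 9.76 and 10.5 with filtered air and 19.6 and 24.9 with PM2.5 in constant light. Both PM2.5 libraries were thus below both filtered-air libraries in one light and above both in the other. Its PM2.5 effect was -1.73 ± 0.31 (log2, SE) in the light/dark cycle and 1.12 ± 0.30 in constant light, an interaction of 2.85 ± 0.43 with a 95% interval of 1.85 to 3.85. Interactions of the other globins were 2.68 ± 0.53 for Hba-a2, 2.5 ± 0.51 for Hbb-bs and 2.36 ± 0.49 for Hbb-bt, and these 3 crossed as well. LD-FA replicate 1 had the highest Hbb-bs of the 4 LD libraries (102 FPKM against 45.2 in its partner), and without it the interactions were 2.32 for Hba-a1 and 1.73 for Hbb-bs. DESeq2 called all 4, with adjusted p from 2.5e-06 for Hba-a1 to 0.0056 for Hba-a2.

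The globin values are not 4 independent readings. Hba-a1 and Hba-a2 transcripts match at 537 of 538 aligned bases and Hbb-bs and Hbb-bt at 580 of 626, so the way fragments were divided within each pair is uncertain. Of 11 erythroid markers listed, 8 were in the table and 5 were tested, with 5 positive interactions (50.4% of all genes). Their median was 2.5, or 1.66 without the 3 libraries rich in pancreas transcripts. The fifth, Alas2, the heme-synthesis enzyme of red cell precursors, was named after its values were seen. It stood between 65.9 and 81.3 FPKM in all 8 libraries, with an interaction of 0.02 ± 0.19 (95% interval -0.42 to 0.46). Slc4a1, a membrane protein of red cells, was at or below 0.019 FPKM throughout. In bulk tissue, fewer cells of a type and less RNA per cell cannot be told apart, and the share of blood in each sample was not tested.

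Alas1, which makes the first and rate-limiting intermediate of heme in liver, stood opposite to the globins. Its level was 42.5 and 49.9 FPKM in filtered air against 160 and 191 in PM2.5 under the light/dark cycle, and 70.4 and 164 against 62.0 and 30.2 under constant light. PM2.5 libraries were above LD-FA in the light/dark cycle and below LL-FA in constant light, where the filtered-air partners differed widely. The interaction was -3.26 ± 0.61 (-2.57 without LL-FA replicate 2), from effects of 1.93 ± 0.43 and -1.33 ± 0.42. DESeq2 gave it an adjusted p of 2.7e-07, while the smallest adjusted p of any gene in edgeR was 0.843.

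Hamp2, the second hepcidin gene of the mouse, had a positive interaction. It was at 8.35 and 11 (filtered air) and 3.04 and 4.91 FPKM (PM2.5) in the light/dark cycle, and 2.73 and 5.42 (filtered air) and 19.4 and 60.8 FPKM (PM2.5) in constant light. The groups did not overlap in either light, and the interaction was 4.53 ± 0.78, or 3.54 without LL-PM2.5 replicate 2, where its level was highest. Hamp, the main hepcidin gene and also named after its values were seen, had no such separation, with 833 and 1223 FPKM with filtered air and 607.8 and 3025 with PM2.5 in the light/dark cycle, and 1619 and 1656 with filtered air and 2447 and 3157 with PM2.5 in constant light. Its interaction was -0.18 ± 0.89, with an interval of -2.27 to 1.90. Hamp and Hamp2 transcripts match at 388 of 410 aligned bases, and Hamp2 holds far fewer fragments, so its values are uncertain to the degree that fragments were misassigned. Over the 22 heme and iron genes as a whole the median interaction was 0.04, with 12 positive and 10 negative, beside 0.00 over all genes. Of the 22, Hamp2 and Alas1 had an unadjusted p under 0.05 (9.09% of the list, beside 4.88% of all genes).

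**Figure D2:**
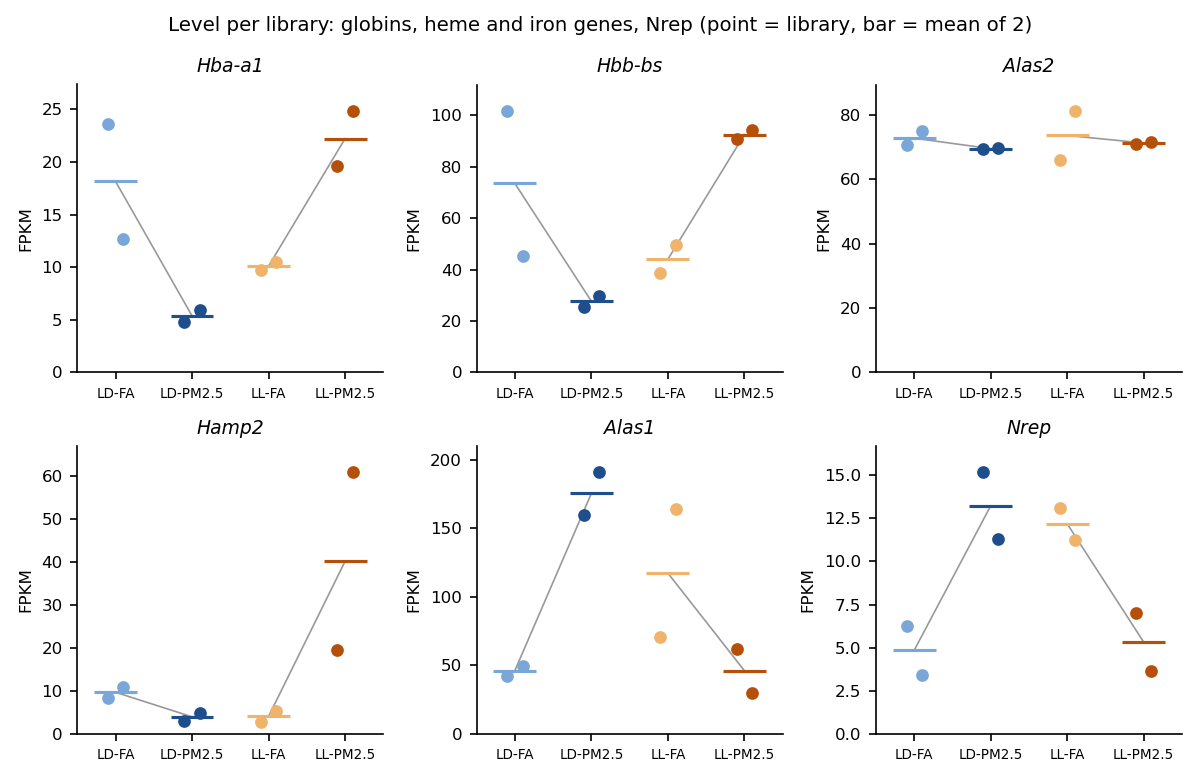
FPKM per library (points, 2 per group) and group mean (bars) for 2 globins, Alas2, Hamp2, Alas1 and Nrep, with grey lines joining filtered air to PM2.5 within a light regime. The lines slope in opposite directions for the globins, Hamp2, Alas1 and Nrep, whereas Alas2 stays between 65.9 and 81.3 FPKM.

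Transcripts for signalling through the interleukin-6 receptor and STAT3 mostly stood higher with PM2.5 in the light/dark cycle and near the filtered-air level in constant light. All 13 tested genes of a list for this pathway had a negative interaction, against 49.6% of all genes. Of these, 5 had an unadjusted p under 0.05, against 2.91% of all genes in that direction. Members of this and the other lists were chosen with earlier results of these data known. They were also read in the same 8 libraries and are not independent, so shares of a list are a description only. The list's median PM2.5 effect was 0.71 in the light/dark cycle and -0.01 in constant light, and its median interaction of -0.82 ranged from -1.15 to -0.39 (without LD-PM2.5 replicate 2) when single libraries were left out. Without the 3 libraries rich in pancreas transcripts it was -1.44. On the receptor side, Il6st, the shared signalling chain gp130, was at 17.1 and 20.7 FPKM in filtered air against 35.4 and 31.9 in PM2.5 under the light/dark cycle, and 26.4 and 16.7 against 22.6 and 14.8 under constant light. The LD groups were separate and the LL groups overlapped, with an interaction of -0.86 ± 0.25. Il6ra, the receptor's ligand-binding chain and the fifth of the list by p, was named after its values were seen and had -1.0 ± 0.39.

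Targets of the pathway include the kinase gene Pim1. In the light/dark cycle it was at 5.76 and 5.40 FPKM with filtered air and 10.8 and 12.9 with PM2.5, but in constant light at 7.31 and 6.89 with filtered air and 6.03 and 7.02 with PM2.5. PM2.5 libraries stood at about the LL-FA level in constant light, where the groups overlapped. The PM2.5 effect was 1.09 ± 0.16 in the light/dark cycle and -0.11 ± 0.16 in constant light, an interaction of -1.20 ± 0.22 that lay between -1.36 and -1.06 when single libraries were left out. Its relative Pim3 had 15 and 16.5, 29.0 and 50.1, 18.7 and 27.6, and 22.5 and 26.6 FPKM in the same order of groups, with an interaction of -1.26 ± 0.28. Both were called by DESeq2, with adjusted p of 0.021 and 0.024. Socs3, the feedback inhibitor of this receptor, was at 2.56 and 1.48 (filtered air) and 10.4 and 23.9 FPKM (PM2.5) in the light/dark cycle, and 0.817 and 6.16 (filtered air) and 1.45 and 1.21 FPKM (PM2.5) in constant light. Its LD groups were well apart, while the LL-FA libraries spanned both LL-PM2.5 values. The interaction was -4.44 ± 1.12, or -2.51 without LL-FA replicate 2.

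Steap4, a metal reductase of the plasma membrane and endosomes that inflammatory cytokines are known to induce, followed the same course. Its values were 40.4 and 34.1 FPKM with filtered air and 106 and 98.9 with PM2.5 in the light/dark cycle, and 46.5 and 68.9 with filtered air and 48.7 and 32.0 with PM2.5 in constant light. Only the LD groups were separate, and the interaction was -1.94 ± 0.38, called by DESeq2 with an adjusted p of 1.5e-04. Steap4 was the exception in its list. Over 26 acute phase proteins the median interaction was 0.12, with 18 positive and 8 negative (-0.08 without LD-FA replicate 1). Steap4 was the only one of the 26 at an unadjusted p under 0.05 (3.85%, beside 4.88% of all genes).

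Sequences upstream of 3 of these genes are shown because they hold the palindrome that STAT factors are known to bind, TTCNNNGAA, which reads the same on both strands. They are RefSeq sequences on GRCm38.p6, 5′ to 3′ on the gene's strand, limited to the unbroken stretch around the match that lies within the 250 bases before the annotated start and outside GENCODE exons, with the match in capitals. Socs3 is at chr11:117969452-117969616 (minus strand), Steap4 at chr5:7960347-7960456 (plus strand) and Hamp2 at chr7:30924182-30924431 (minus strand).
Socs3: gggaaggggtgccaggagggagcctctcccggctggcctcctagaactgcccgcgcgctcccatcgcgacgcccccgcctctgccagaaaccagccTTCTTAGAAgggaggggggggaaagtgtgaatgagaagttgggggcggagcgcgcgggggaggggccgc
Steap4: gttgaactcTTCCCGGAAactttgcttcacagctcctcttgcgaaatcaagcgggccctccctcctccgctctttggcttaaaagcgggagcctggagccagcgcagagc
Hamp2: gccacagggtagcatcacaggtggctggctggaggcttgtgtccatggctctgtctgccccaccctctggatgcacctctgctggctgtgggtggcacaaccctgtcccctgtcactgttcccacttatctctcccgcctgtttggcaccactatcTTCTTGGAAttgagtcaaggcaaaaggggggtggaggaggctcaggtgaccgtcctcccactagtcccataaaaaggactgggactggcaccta
The match ends 145 bases before the RefSeq start in Socs3, 107 in Steap4 and 85 in Hamp2. Such a match is common: 8.13% of 27025 genes had one in the 250 bases, as did 590 of 8296 tested genes with a window. Of the 20 genes with a window that were named for a strong or crossing interaction, 3 had one (Alas1, Hamp2 and Steap4), and of 24 in the STAT3 and growth hormone lists, 3 (Bcl6, Igfals and Socs3). Socs3 and Steap4 had negative interactions and Hamp2 a positive one, and binding was not measured.

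**Figure D3:**
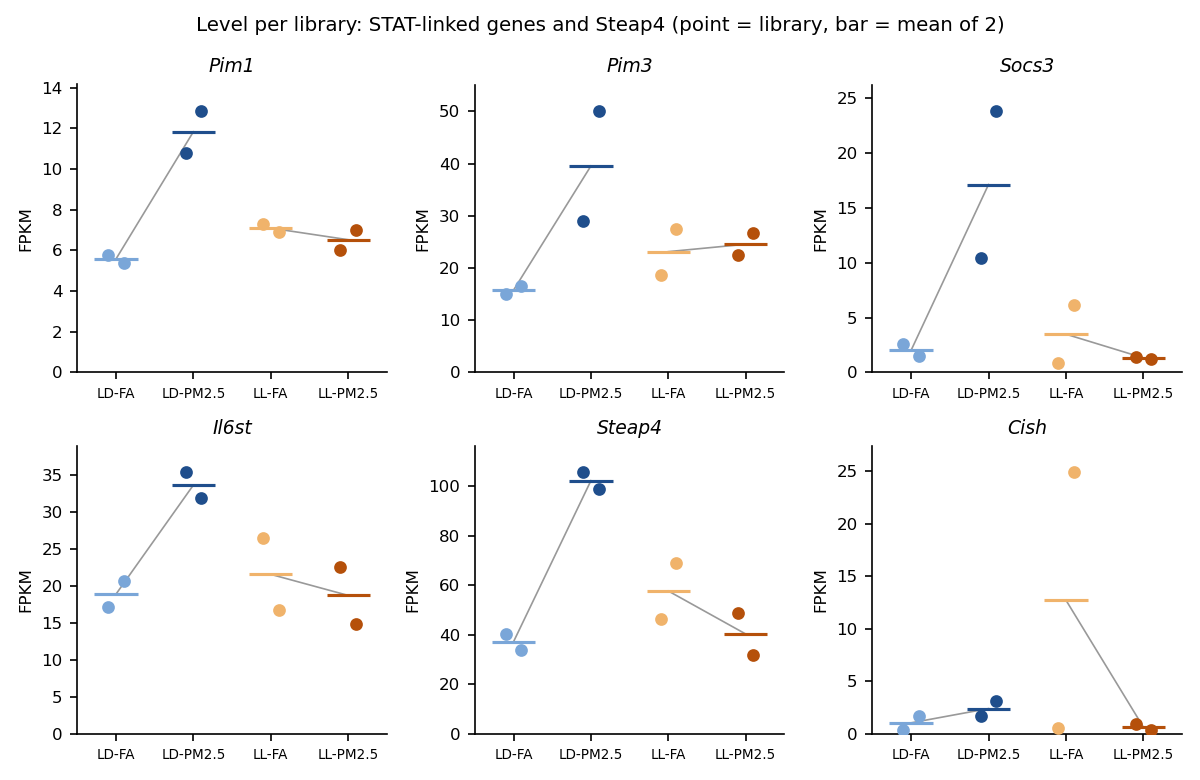
FPKM per library (points) and group mean (bars) for Pim1, Pim3, Socs3, Il6st, Steap4 and Cish, with grey lines joining filtered air to PM2.5 within a light regime. Pim1 reads 10.8 and 12.9 FPKM in LD-PM2.5 and between 5.40 and 7.31 in the other 6 libraries, while Cish is high in 1 LL-FA library only.

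Genes of growth hormone signalling, which acts on liver through STAT5, had a median interaction of -0.30 over 17 tested members. Of the 17, 14 were negative (49.6% of all genes), and 4 had an unadjusted p under 0.05, all negative (2.91% of all genes). Leaving out the second library of LD-PM2.5 moved that median to -0.59, and leaving out the second of LL-PM2.5 moved it to -0.20. Onecut1 (HNF6), a liver transcription factor, crossed, with 1.1 and 2.52 FPKM in filtered air against 8.68 and 3.78 in PM2.5 under the light/dark cycle, and 2.34 and 11.1 against 2.00 and 1.13 under constant light. Its interaction was -3.83 ± 1.1, and -2.20 without LL-FA replicate 2. The feedback inhibitor Cish rested on that library as well. Cish stood at 24.9 FPKM there and between 0.392 and 3.09 FPKM in the other 7, and its interaction was -5.37 ± 1.98 with that library and -1.02 without it. Socs2, a related inhibitor, peaked at 11.7 FPKM in the first library of LD-PM2.5 and at 10.6 in the second of LL-FA, with 0.748 to 4.43 in the rest, so its interaction of -3.82 ± 1.48 had both values behind it. Stat5a itself was at -0.78 ± 0.30.

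Inflammatory genes outside this pathway included members of either sign. Over 15 cytokine, chemokine and NF-kB genes 8 interactions were positive and 7 negative, 1 and 3 of them at an unadjusted p under 0.05 (1.97% and 2.91% of all genes). The median of 0.05 was not stable: it was -0.53 without LL-PM2.5 replicate 2, 0.38 without LL-PM2.5 replicate 1 and -0.76 without the 3 libraries rich in pancreas transcripts. Nfkbiz, a nuclear co-regulator of NF-kB, read 1.84 and 1.98 (filtered air) and 3.80 and 4.02 FPKM (PM2.5) in the light/dark cycle, and 1.58 and 1.11 (filtered air) and 1.4 and 0.98 FPKM (PM2.5) in constant light. The LD-PM2.5 libraries stood above the other 6, and the interaction was -1.18 ± 0.28. Negative values were also found for Il1r1, the interleukin-1 receptor (-1.24 ± 0.34), and the NF-kB subunit Relb (-1.19 ± 0.47), whereas the cytokine Il1b had 1.39 ± 0.44. For 26 interferon response genes the median was 0.02, with 1 at an unadjusted p under 0.05 (3.85%, beside 4.88% of all genes).

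Markers of immune cells gave small lists. All 3 tested B and plasma cell markers, of 9 listed, had a positive interaction, against 50.4% of all genes. Of these, 2 had an unadjusted p under 0.05, against 1.97% of all genes in that direction. Ighm, the heavy chain of IgM, was at 21.6 and 17.3 FPKM with filtered air and 11.6 and 8.58 with PM2.5 in the light/dark cycle, and 5.72 and 8.03 with filtered air and 8.11 and 8.52 with PM2.5 in constant light, with an interaction of 1.23 ± 0.29. Its LL groups were barely separated, and LD-FA stood above every other library. Jchain, which joins IgM and IgA chains, was at 1.55 ± 0.58 (0.91 without LD-FA replicate 1), and the light chain Igkc at 1.0 ± 0.47. The 2 tested neutrophil markers went the other way, S100a8 with -1.90 ± 0.63 and S100a9 with -1.16 ± 0.62, and LD-PM2.5 replicate 2 held the highest level of both (6.01 and 6.41 FPKM). Over 14 Kupffer cell and macrophage markers the median was 0.27, with 12 positive (50.4% of all genes), and without LL-FA replicate 1 it was -0.02. The 1 marker of that list at an unadjusted p under 0.05 (7.14%, beside 4.88% of all genes) had a negative interaction. Sinusoidal endothelium markers, 11 in number, had a median of -0.03 with none at an unadjusted p under 0.05. The part of these cells in other results was not tested.

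Genes of glucose output showed opposite members within a list. G6pc, the enzyme that releases glucose from the liver, crossed, with 184 and 180 FPKM in filtered air against 140 and 72.8 in PM2.5 under the light/dark cycle, and 70.7 and 42.8 against 218 and 84.5 under constant light. PM2.5 libraries thus stood below filtered air in the light/dark cycle and above it in constant light, with wide gaps between partners. The interaction was 2.24 ± 0.60, ranging from 1.53 to 2.73 when single libraries were left out, and DESeq2 gave an adjusted p of 0.0052. Igfbp1, an insulin-repressed binding protein of insulin-like growth factors, was at 28.6 and 11.3 (filtered air) and 18.5 and 13.9 FPKM (PM2.5) in the light/dark cycle, and 2.37 and 3.23 (filtered air) and 9.55 and 56.1 FPKM (PM2.5) in constant light. Only its LL groups were separate, and the interaction of 3.93 ± 1.12 became 2.04 without LL-PM2.5 replicate 2. Foxo1, a transcription factor that drives both genes, had the opposite sign (-0.66 ± 0.25), as did the glycolytic regulator Pfkfb1 (-0.62 ± 0.24). Over the 22 glucose and insulin genes 11 interactions were positive and 11 negative, with a median of -0.01. In each direction 3 were at an unadjusted p under 0.05, beside 1.97% (positive) and 2.91% (negative) of all genes.

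Genes of cholesterol synthesis stood lower with PM2.5 mainly in the light/dark cycle. Of 26 genes, 24 had a positive interaction, against 50.4% of all genes, with a median of 0.60. At an unadjusted p under 0.05 were 3, all positive (1.97% of all genes). The median PM2.5 effect was -0.67 in the light/dark cycle and -0.13 in constant light. Insig1, which restrains the sterol sensor, was at 201 and 203 FPKM with filtered air and 110 and 103 with PM2.5 in the light/dark cycle, and 193 and 96.8 with filtered air and 166 and 255 with PM2.5 in constant light. The LD groups were apart and the LL groups overlapped, with an interaction of 1.59 ± 0.46. DESeq2 called it, with an adjusted p of 0.047. Sc5d, a late enzyme of the pathway, had 0.88 ± 0.33. The size of the list's shift depended on LD-PM2.5: the median was 1.33 without its replicate 1 and 0.16 without its replicate 2.

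Fatty acid genes had small interactions, mostly of the other sign. Over 30 genes of fatty acid oxidation and PPARa targets, 29 interactions were negative, against 49.6% of all genes. But the median was -0.33, or -0.10 without the 3 libraries rich in pancreas transcripts. Of the 30, 1 was at an unadjusted p under 0.05 (3.33%, beside 4.88% of all genes). That one was Cyp4a32, a fatty acid hydroxylase, which crossed with 3.93 and 3.61 FPKM in filtered air against 5.13 and 5.19 in PM2.5 under the light/dark cycle, and 6.81 and 5.89 against 5.73 and 4.30 under constant light, an interaction of -0.79 ± 0.21. Cpt2, which feeds fatty acids into mitochondrial oxidation, had -0.49 ± 0.22. Among 19 genes of fatty acid and triglyceride synthesis the median was -0.09, and the lipid droplet protein Cidec stood out. It was at 1.69 and 3.89 (filtered air) and 6.61 and 3.94 FPKM (PM2.5) in the light/dark cycle, and 17.6 and 7.45 (filtered air) and 3.34 and 2.78 FPKM (PM2.5) in constant light. LD-FA and LD-PM2.5 were barely separated, LL-FA stood above all others, and the interaction was -2.90 ± 0.72, called by DESeq2 with an adjusted p of 0.0032. Cidec is also a gene of fat cells, and adipocyte transcripts stood apart in LL-FA replicate 1, the library of its highest level. Of 8 adipocyte markers, 8 were highest there, and without Car3, which hepatocytes also make, the other 7 summed to 54.9 FPKM in that library and to 5.33 to 12.8 in the rest. Adipoq, the fat cell hormone adiponectin, was at 6.94 FPKM there and at or below 0.898 in the others. Without that library the interaction of Cidec was -2.06, and the part of fat tissue in it was not tested. Of 19 genes of bile acid and sterol handling, 2 had an unadjusted p under 0.05, both positive (1.97% of all genes). They were the sterol exporter subunit Abcg8 (0.72 ± 0.25) and the organic anion carrier Slco1a4 (1.51 ± 0.56).

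Amino acid breakdown and the urea cycle had 26 positive and 8 negative interactions among 34 genes, with a median of 0.22 (0.03 without the 3 libraries rich in pancreas transcripts), where 50.4% of all genes were positive. Hal, which starts histidine breakdown, crossed, with 94.3 and 87.7 FPKM with filtered air and 63.7 and 49.7 with PM2.5 in the light/dark cycle, and 86.6 and 76.2 with filtered air and 90.8 and 92.1 with PM2.5 in constant light. LD-PM2.5 was the low group and the other 3 lay close together. Its interaction was 0.91 ± 0.20, and DESeq2 gave an adjusted p of 0.030. Got1, an aminotransferase, had 0.90 ± 0.38.

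Other genes picked for the strength of the contrast belong to no single pathway. Nrep, a small protein first studied in regenerating neurons, had the smallest unadjusted p of all genes (0.000106). It was at 6.27 and 3.42 FPKM in filtered air against 15.2 and 11.3 in PM2.5 under the light/dark cycle, and 13.1 and 11.3 against 7.0 and 3.65 under constant light. The libraries crossed with clear gaps, and the interaction of -2.59 ± 0.35 stayed between -2.92 and -2.32 when single libraries were left out. Etfbkmt, a mitochondrial methyltransferase that modifies the electron transfer flavoprotein, read 19.6 and 14.1, 53.3 and 35.6, 46.5 and 49.3, and 40.1 and 19.8 FPKM in the same order of groups as Nrep. It crossed too, with an interaction of -2.08 ± 0.37. In both genes the LL-FA level was near that of LD-PM2.5 and above LD-FA. DESeq2 gave adjusted p of 2.4e-08 for Nrep and 3.8e-05 for Etfbkmt.

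Negative interactions with crossing libraries were also found for Rcan1, an inhibitor of calcineurin (-1.38 ± 0.30), and the transporter Slc45a3 (-1.29 ± 0.32). Derl3, which helps clear misfolded proteins from the endoplasmic reticulum, had -2.58 ± 1.0, resting largely on 10.6 FPKM in LD-PM2.5 replicate 1 (-1.17 without it). Gm24601 crossed at low levels, between 0 and 7.36 FPKM (-3.65 ± 1.86). Gm14403 (-1.53 ± 0.33) and 2010003K11Rik (-1.17 ± 0.27) were higher with PM2.5 in the light/dark cycle and nearly level in constant light, where their effects were -0.22 ± 0.23 and 0.08 ± 0.19. Positive and crossing were Arl4d, a small GTPase (1.98 ± 0.42), and Tm4sf1, a membrane protein (1.05 ± 0.19). The RNA-binding protein Hnrnpdl had 1.06 ± 0.21 and overlapped on FPKM, though it crossed on TMM-scaled counts. Arl4d was at 28.6 and 21.5 (filtered air) and 14.1 and 17.7 FPKM (PM2.5) in the light/dark cycle, and 11 and 6.82 (filtered air) and 19.5 and 26.5 FPKM (PM2.5) in constant light, so that LD-FA and LL-PM2.5 formed the high groups. Of the 10 positive genes chosen by unadjusted p, 9 crossed, and of the 10 negative ones 5 did, beside 2.81% of all genes, but a choice by interaction p favours crossing genes.

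Without the 3 libraries rich in pancreas transcripts the interactions of Nrep (-2.61), Alas1 (-2.84), Etfbkmt (-1.75), Pim1 (-1.50) and Steap4 (-1.90) were of like size, as were those of Hal (0.95) and Ighm (1.21). Hba-a1 stood at 2.01, Hamp2 at 3.35 and G6pc at 3.24 in that fit, and Igfbp1 at 1.48. With replicate 1 of both filtered-air groups left out, which removes the 2 libraries highest in muscle transcripts, Nrep was at -3.02, Alas1 at -3.61, Hamp2 at 4.36, Hba-a1 at 2.33 and Hbb-bs at 1.60, and Cidec was at -1.61.

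**Figure D4:**
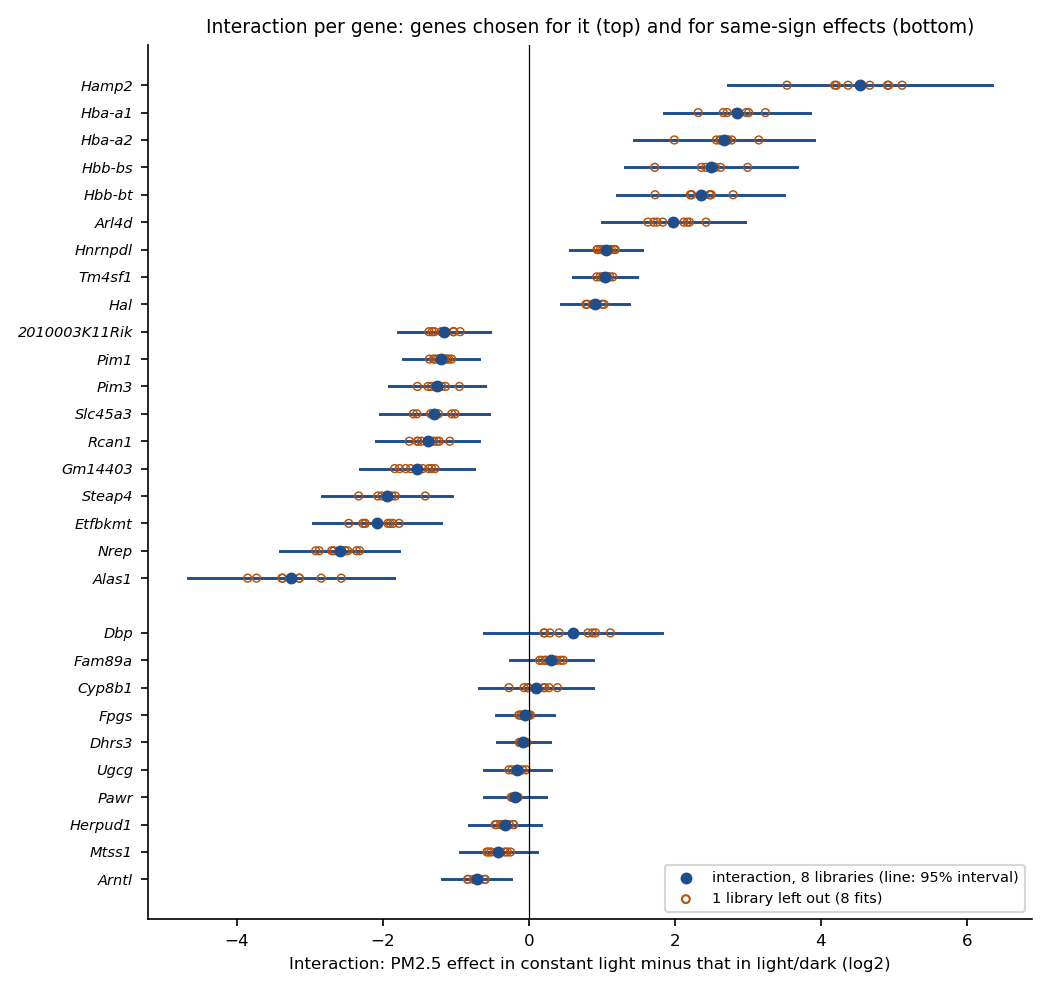
Interaction on the log2 scale for 19 of the 20 genes picked by smallest unadjusted p, 10 negative and 9 positive (top block), and for the 10 genes picked for PM2.5 effects of the same sign and small p in both lights (bottom block); filled points and lines are the estimate from 8 libraries with its 95% interval, and open points are fits that leave out 1 library each. No open point of the top block lies on the other side of 0, which the choice by p favours, and in the bottom block all intervals but that of Arntl include 0.

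Most E-box driven clock genes stood higher with PM2.5 in both light regimes. The 12 tested genes are driven by E-boxes, the DNA elements that Arntl and Clock bind. In 7 of them both PM2.5 libraries were above both filtered-air libraries in both lights, against 2.89% of all genes. An interaction at an unadjusted p under 0.05 was found for 1 of the 12 (8.33%, beside 4.88% of all genes). The list's median PM2.5 effect was 1.63 in the light/dark cycle and 0.82 in constant light, and the median interaction was -0.54. That sign rested on LD-PM2.5 replicate 2, without which it was 0.19. Dbp, an output transcription factor, was at 2.77 and 2.05 FPKM with filtered air and 9.12 and 13 with PM2.5 in the light/dark cycle, and 3.86 and 9.08 with filtered air and 32.9 and 54.0 with PM2.5 in constant light. PM2.5 libraries were above filtered air in both lights, with effects of 2.21 ± 0.39 and 2.82 ± 0.38, and the interaction of 0.61 ± 0.52 had a 95% interval of -0.61 to 1.82.

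For the Per repressors LD-PM2.5 replicate 2 stood apart from its partner. Per3 was at 0.111 and 0.138 FPKM in filtered air against 0.344 and 2.29 in PM2.5 under the light/dark cycle, and 0.456 and 0.464 against 1.16 and 1.52 under constant light, and its interaction of -1.81 ± 1.02 became 0.03 without that library. Per1 (-0.73 ± 0.76), Per2 (-1.39 ± 0.96) and the output factor Tef (-0.78 ± 0.57) took the other sign in the same way, at 0.38, 0.16 and 0.10. All 4 had PM2.5 libraries above filtered air in both lights. Usp2, a deubiquitinase under clock control, was at 16.4 FPKM in that library and between 0.803 and 5.07 in the other 7, and its interaction was -2.99 ± 1.27 with it and -0.32 without. Nr1d1, a repressor of Arntl, stood at 22 and 20.1 (filtered air) and 52.5 and 5.55 FPKM (PM2.5) in the light/dark cycle, and 15.1 and 12.2 (filtered air) and 37.8 and 39.8 FPKM (PM2.5) in constant light. The partners in LD-PM2.5 lay on either side of filtered air, and the interaction of 1.01 ± 1.11 ran from 0.15 to 3.42 when single libraries were left out. Its paralog Nr1d2 had an interaction of 0.09 ± 0.23, within -0.46 to 0.63. Whether the partners were collected at different hours was not tested.

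Genes listed as of the opposite phase, most of which peak when the E-box genes are low, had 7 negative interactions among 7 tested (49.6% of all genes). Of these, 2 had an unadjusted p under 0.05, against 2.91% of all genes in that direction. The list's median of -0.72 lay between -0.99 and -0.60 when single libraries were left out. Arntl was at 6.75 and 6.35 FPKM with filtered air and 4.40 and 4.0 with PM2.5 in the light/dark cycle, and 6.10 and 4.88 with filtered air and 2.09 and 2.04 with PM2.5 in constant light. PM2.5 stood lower in both lights, with effects of -0.65 ± 0.14 and -1.37 ± 0.15, and the interaction was -0.72 ± 0.20 with an interval of -1.19 to -0.24. Nfil3, a repressor that competes with Dbp, crossed, with 13.7 and 16.8 FPKM in filtered air against 20.9 and 26.7 in PM2.5 under the light/dark cycle, and 12 and 12.6 against 11 and 9.34 under constant light, an interaction of -0.92 ± 0.24. Cry1, a repressor that Arntl and Clock also drive, was at 15.1 FPKM in LD-PM2.5 replicate 2 and between 2.71 and 5.36 elsewhere. Its interaction of -1.54 ± 0.92 turned to 0.21 without that library. Npas2, a partner of Arntl, was at or below 0.413 FPKM in every PM2.5 library and at or above 0.469 in every filtered-air library, with effects of -2.52 ± 0.83 and -2.74 ± 0.92.

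Among 23 rhythmic outputs of the liver, 8 stood higher with PM2.5 in both lights and 4 lower in both, beside 2.89% and 3.36% of all genes, and 1, Alas1, crossed, a share near the 2.81% of all genes. Rgs16, a brake on G protein signalling, had the opposite sign of interaction to most: 0.350 and 0.293 (filtered air) and 1.64 and 2.17 FPKM (PM2.5) in the light/dark cycle, and 0.088 and 0.120 (filtered air) and 3.30 and 1.61 FPKM (PM2.5) in constant light. PM2.5 was above filtered air in both lights, by 2.59 ± 0.37 and 4.54 ± 0.43, an interaction of 1.95 ± 0.57. Lpin2, an enzyme of triglyceride synthesis, had -0.81 ± 0.24, and the cell cycle inhibitor Cdkn1a -1.11 ± 0.34 with PM2.5 lower in both lights (-0.86 ± 0.24 and -1.97 ± 0.25).

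Heat shock genes mostly had a lower PM2.5 response in constant light than in the light/dark cycle. Of 19 heat shock chaperones, 15 had a negative interaction, against 49.6% of all genes, with a median of -0.48 (-0.90 without the 3 libraries rich in pancreas transcripts). At an unadjusted p under 0.05 were 2 (10.5%), both negative, beside 2.91% of all genes in that direction. Hspa4l, a co-chaperone, was at 4.70 and 5.25 FPKM with filtered air and 10.6 and 15.5 with PM2.5 in the light/dark cycle, and 5.49 and 5.10 with filtered air and 3.79 and 4.36 with PM2.5 in constant light, an interaction of -1.57 ± 0.45. The LD-PM2.5 libraries were the only ones above 5.49 FPKM. Hspb1, a small heat shock protein, was at 119 FPKM in LD-PM2.5 replicate 2 and at or below 30.7 elsewhere, and had -2.70 ± 0.97, or -1.27 without that library. In 26 genes of the unfolded protein and integrated stress responses the median was -0.03, with 13 in each direction, and it ran from -0.48 to 0.26 without LL-PM2.5 replicate 2 and replicate 1. Xbp1, a transcription factor of that response, had -0.91 ± 0.32, and Chac1, a glutathione-degrading enzyme, -2.75 ± 0.87 (-1.29 without LL-FA replicate 2).

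Several immediate early and growth arrest genes had values that rested on LL-FA replicate 2. Gadd45g, a stress sensor, was at 41.8 FPKM in that library and between 2.85 and 18.4 in the other 7, and its interaction of -3.70 ± 1.19 was -1.54 without it. Myc, a growth-promoting transcription factor, was at 14.5 FPKM there and between 0.857 and 1.98 elsewhere, with -3.17 ± 1.35 and -0.47 with and without it. The relative Gadd45a had -1.49 ± 0.61. List medians were 0.16 over 18 immediate early genes and -0.12 over 14 growth arrest genes, with 3 members of each at an unadjusted p under 0.05, all negative (2.91% of all genes). Both medians depended on the libraries. Without the 3 libraries rich in pancreas transcripts they were -1.20 and -0.44, and without LL-PM2.5 replicate 2 they were -0.65 and -0.32. The growth arrest median was 0.08 without LD-PM2.5 replicate 2.

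Genes for histone and DNA modifying enzymes showed no shared lean. Over 27 of them the median interaction was -0.03, with 11 positive and 16 negative. The histone deacetylases Hdac4 (-0.76 ± 0.23) and Hdac2 (0.46 ± 0.18) were the members at an unadjusted p under 0.05 (7.41%, beside 4.88% of all genes). Hdac4 stood at or below 1.28 FPKM in all libraries. The aryl hydrocarbon receptor and NRF2 sense combustion products and oxidants. Of their 17 targets, 1 was at an unadjusted p under 0.05 (5.88%, beside 4.88% of all genes), and the median was -0.02. For 20 cytochrome P450 genes of families 2 and 3 it was -0.21 (-0.04 without LD-PM2.5 replicate 2), with 16 negative (49.6% of all genes) and none at that p. For 17 stellate cell and fibrosis genes it was 0.05, again with none.

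**Figure D5:**
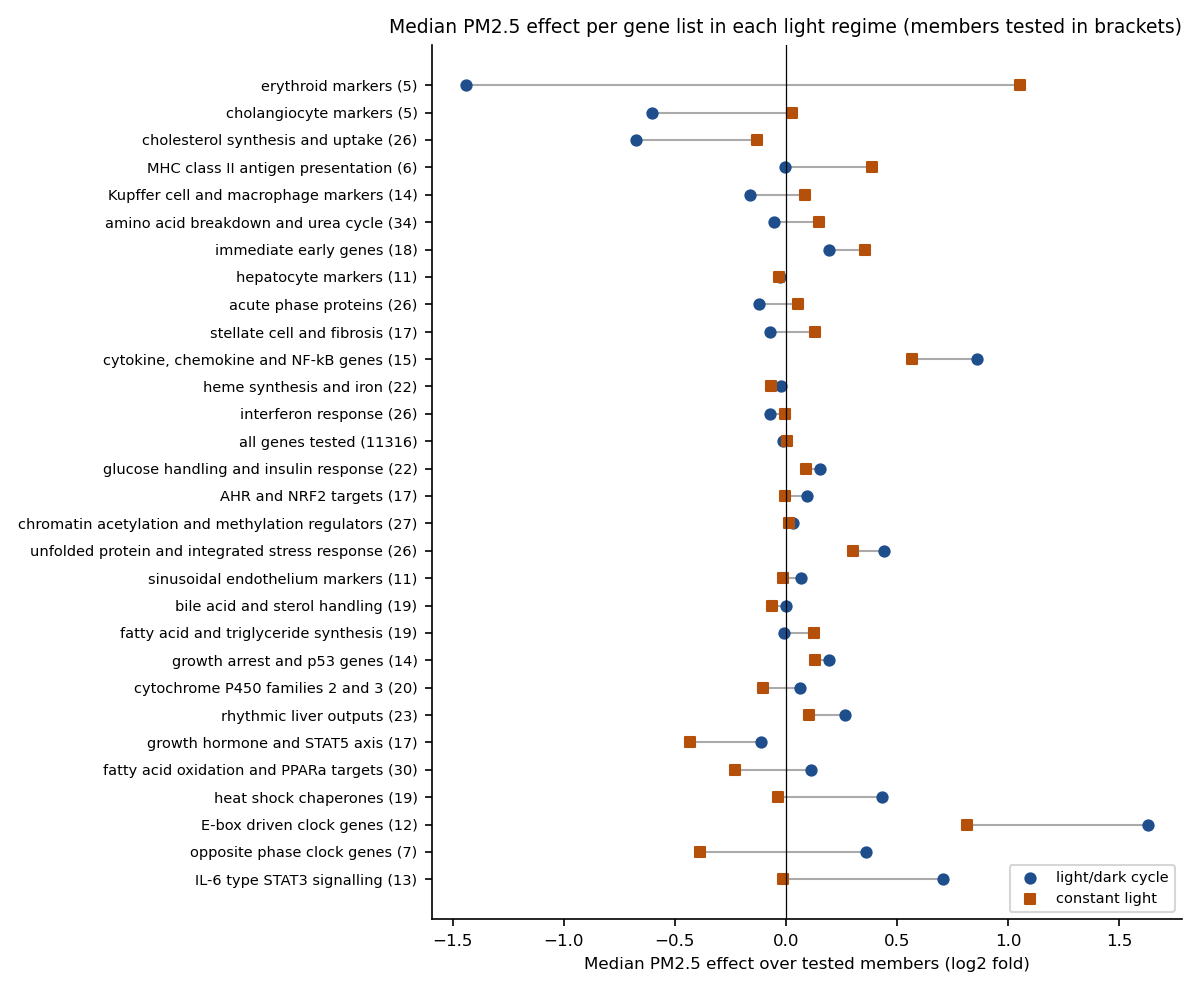
Median PM2.5 effect (log2 fold) over the tested members of each gene list with at least 5 tested members, in the light/dark cycle (circles) and in constant light (squares), ordered by the median interaction; acinar and muscle marker lists are left out. Erythroid markers lie at -1.44 and 1.06 and the STAT3 list at 0.71 and -0.01, while all tested genes lie at -0.01 and 0.00.

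Other genes were picked for PM2.5 effects of the same sign and small p in both lights, so their effects are given as a description. Mtss1, a membrane-shaping protein, was at 13.1 and 14.4 FPKM in filtered air against 35.4 and 41.8 in PM2.5 under the light/dark cycle, and 15.2 and 14.4 against 30.3 and 29.7 under constant light. The PM2.5 libraries were the 4 highest, with effects of 1.46 ± 0.16 and 1.04 ± 0.16 and an interaction interval of -0.94 to 0.11. Herpud1, which acts in clearance of misfolded proteins, read 218 and 207, 385 and 387, 175 and 217, and 259 and 307 FPKM, and its interval was -0.82 to 0.16. Pawr, a pro-apoptotic factor, and Ugcg, which makes glucosylceramide, were also higher with PM2.5 in both lights, with intervals of -0.62 to 0.24 and -0.61 to 0.30. Lower in both were Cyp8b1, the enzyme that makes cholic acid (332 and 290, 152 and 131, 225 and 301, and 162 and 99.9 FPKM), Fam89a, the folate enzyme Fpgs and the retinal reductase Dhrs3. Their interaction intervals were -0.68 to 0.89, -0.26 to 0.87, -0.45 to 0.34 and -0.44 to 0.29. These widths still allow differences between lights of the size of many effects above.

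Transcripts of pancreas carried some of the greatest interactions and follow the libraries named at the start. All 13 tested acinar markers were positive, with a median of 13.42, and 11 were among the 223 positive genes at an unadjusted p under 0.05. Cela2a, a pancreatic elastase, was at 761, 22.3 and 71.2 FPKM in the 3 libraries rich in pancreas transcripts and at or below 1.5 in the other 5, with an interaction of 12.26 ± 4.57. With those 3 libraries left out it was -0.46. Of the 33 DESeq2 calls, 17 were positive and 16 negative, and Cel and Try5 are on the acinar list. Without the 3 libraries edgeR called 4 genes, named here after their values were seen: Apoa4 (-2.76, adjusted p 0.042), Usp2 (-3.69, adjusted p 0.042), Serpinb1a (3.58, adjusted p 0.042) and Hectd2os (3.80, adjusted p 0.045). That fit has single libraries in 3 groups, and those libraries are assumed to vary like LL-FA, the only group with both. LD-PM2.5 is then its replicate 2 alone, where Apoa4, a lipoprotein component, was at 221 FPKM against 25.7 to 67.7 in the other 7.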

How the data were processed

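Per the submitters' processing notes, STAR, Cufflinks and Cuffdiff with build mm10 were used, while the sources used here name no versions or options. The table deposited by the authors gives, per the file headers, an estimated count of fragments and an FPKM value per gene and library. Of fragment values above 0, 97.4% lay within 0.01 of a whole number, and all were rounded. Genes with a status other than OK in any library (47, with 1.07% of fragments) were left out. Gene positions come from GENCODE M21.

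edgeR 4.0.16 (TMM, quasi-likelihood, 4 group means, two-sided) in R 4.3.3 gave the interaction and each PM2.5 effect, with Benjamini-Hochberg adjustment over 11316 genes. Standard errors are the absolute log2 change over the square root of F, with a median of 0.26 for the interaction. limma 3.58.1, DESeq2 1.42.0, other filters and scalings, a replicate block and leaving out libraries were alternatives, and leaving out the 3 libraries rich in pancreas transcripts was added after seeing the data.

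Named were, per direction, the 10 genes of smallest interaction p with a mean of 5 FPKM in a group, the 5 crossing genes of largest effect, the 5 with effects of the same sign and the smallest larger p of both lights, and up to 4 genes per list by p. Lists numbered 36. Members and lists were chosen with earlier results of these data known. Some genes are not reported here.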

Additional observations from a re-analysis of the deposited data

Results flagged for a closer look

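For 24 of the genes described, every PM2.5 library moved one way in one light regime and the opposite way in the other. The difference between light regimes was tested as the interaction in edgeR, and it did not pass adjustment over all genes for any of them, with a smallest adjusted p of 0.843. Most were chosen for a strong interaction, and 2.81% of all tested genes crossed in this way, so the number says nothing by itself.

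Lower with PM2.5 in the light/dark cycle and higher in constant light were the 4 globins, with interactions of 2.85 for Hba-a1, 2.68 for Hba-a2, 2.5 for Hbb-bs and 2.36 for Hbb-bt, the hepcidin gene Hamp2 (4.53), the glucose-releasing enzyme G6pc (2.24), Arl4d (1.98), the IgM heavy chain Ighm (1.23), Tm4sf1 (1.05) and Hal (0.91).

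Higher with PM2.5 in the light/dark cycle and lower in constant light were Onecut1 (-3.83), Gm24601 (-3.65), the heme-synthesis enzyme Alas1 (-3.26), Cidec (-2.90), Nrep (-2.59), Derl3 (-2.58), Etfbkmt (-2.08) and S100a8 (-1.90). Smaller values were found for Hspa4l (-1.57), Rcan1 (-1.38), Slc45a3 (-1.29), Nfil3 (-0.92), Cyp4a32 (-0.79) and Pfkfb1 (-0.62). Hspa4l overlapped when TMM-scaled counts were used in place of FPKM.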

How the results depend on the processing

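The count of edgeR calls, 0, was 239 with no filter on low values, 2 with limma on log2(FPKM + 1), 33 with DESeq2 and 4 without the 3 libraries rich in pancreas transcripts, and 0 under the other alternatives. With no filter the prior degrees of freedom were 76.3 in place of 3.46. Of the 239 calls, 199 were among the 11316 tested genes, and 32 were also DESeq2 calls. The 552 genes at an unadjusted p under 0.05 became 1348 with no filter, 336 at 5 FPKM, 313 and 324 with limma at pseudocounts of 1 and 0.1, 252 without replicate 1 of both filtered-air groups, and 250 (without LD-FA replicate 1) to 1258 (without LL-PM2.5 replicate 1) when single libraries were left out. The count was 1014 without LD-PM2.5 replicate 1, 320 without its replicate 2 and 348 without LL-PM2.5 replicate 2. The 318 crossing genes (2.81%) became 516 on TMM-scaled counts (4.56%), 609 with no filter (2.64%) and 174 at 5 FPKM (2.52%). The gene totals behind these counts, and behind the 1348 and 336 above, were 23030 with no filter and 6903 at 5 FPKM. The causes were not tested beyond the number of genes and samples.

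Of 87 named genes, median-of-ratios scaling, DESeq2, a robust prior and no filter turned the sign of none. Signs that turned were those of genes whose interval includes 0, apart from Cela2a (-0.46 without the pancreas-rich libraries). With limma at pseudocounts of 1 and 0.1, Npas2 took 0.44 and 0.60, Hamp 0.34 and 0.34, and Nr1d2 -0.030 and -0.049, and at 5 FPKM Alas2 took -0.0092. Without replicate 1 of both filtered-air groups Alas2 took -0.063, Cyp8b1 -0.17, Dbp -0.10, Fpgs 0.050, Hamp 0.16, Npas2 0.056 and Nr1d2 -0.22. Without the pancreas-rich libraries Dbp took -0.29, Fpgs 0.10, Npas2 3.46 and Nr1d2 -0.16. With single libraries left out, values ran from -0.12 to 0.17 for Alas2, -2.31 to 0.21 for Cry1, -0.27 to 0.39 for Cyp8b1, -0.14 to 0.023 for Fpgs, -0.93 to 1.48 for Hamp, -1.21 to 2.76 for Npas2, -0.091 to 0.27 for Nr1d2, -1.35 to 0.38 for Per1, -2.16 to 0.16 for Per2, -2.60 to 0.030 for Per3, -0.32 to 2.60 for Serpinb1a and -1.32 to 0.10 for Tef.

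The median interaction of 22 of the 36 lists took the other sign when some single library was left out. Those of the STAT3, cholesterol, growth hormone, heat shock, fatty acid oxidation, amino acid, erythroid and opposite phase clock lists did not. Neither did those of the cytochrome P450, B and plasma cell, neutrophil, sinusoidal endothelium, cholangiocyte and acinar lists. The acinar median, which follows the 3 libraries rich in pancreas transcripts, ran from 1.48 to 16.85, so a kept sign says little by itself.

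With the replicate number as a block, edgeR called 0 genes and 484 had an unadjusted p under 0.05. Same-numbered libraries had deviations correlating between -0.59 and 0.33 across group pairs. Those deviations include the pancreas and muscle transcripts of single libraries, and whether the numbers pair libraries was not tested further. With 2 libraries a group and a median SE of 0.26, small differences between light regimes cannot be seen.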
